A study of Mus musculus with 17 samples.

Results

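The B cell receptor and identity genes described here are Ms4a1, Cd79a, Cd79b, Cd22, Pax5, Blk, Cr2 and Fcer2a. They were taken by symbol from a table of 47643 gene symbols, so that 8 of 8 genes were found and 8 of 8 were among the 13305 genes tested. RNA-seq of the breathing muscle, the diaphragm, gave their transcript levels in 17 male C57BL/6J mice aged 4 months. Of the 10 tumor-free mice, 5 received mock injections (Control) and 5 received rFibcd1 (Control + rFibcd1). Mice with Lewis lung carcinoma (LLC) tumors, grown from cells injected under the skin of the flanks, were given mock injections in 3 cases (LLC) and rFibcd1 in 4 (LLC + rFibcd1). rFibcd1 is a recombinant C-terminal fragment of mouse Fibcd1, injected into the peritoneal cavity, and mock injections held saline with albumin. The labels name no engineered allele, and the tumors of all LLC mice came from a single transplanted cell line. The samples were whole pieces of muscle, in which fewer B cells and less RNA per B cell cannot be told apart.

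B cells recognize antigen through a membrane immunoglobulin, which is held on the surface by the signalling subunits Cd79a and Cd79b. Engagement of the receptor is passed on by Src family kinases such as Blk, strengthened by the complement receptor Cr2 and restrained by the inhibitory lectin Cd22. Pax5 is the transcription factor that sets and keeps B cell identity, and Ms4a1 (CD20) and Fcer2a (CD23, the low-affinity receptor for IgE) mark mature B cells. Skeletal muscle fibers are not known as a source of these transcripts.

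The values are TPM, that is, transcripts per 1000000, a level per gene length scaled to the same sum in each mouse. The estimated depth per mouse, in units of 1000000 reads, was 50.8 to 54.6, and 11557 to 13413 genes per mouse reached 1 TPM. That number was 12763 to 13413 in LLC mice and 11798 to 12473 in Control mice, without overlap. The tissue label was borne out as far as skeletal muscle, as the summed level of 8 muscle fiber genes was 49848 to 65633 TPM in the 17 mice. These genes do not set the diaphragm apart from other muscles. No 2 mice had identical columns, and the labels name no batch, dissection day or litter. Changes are given below as log2 change of TPM + 1 with the standard error, tested with limma in a model of the 4 groups and adjusted over all genes tested.

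The genes lie on 7 chromosomes, on GRCm38 in the GENCODE vM21 annotation: Ms4a1 at chr19:11249675-11266241, Cd79a at chr7:24897381-24902197, Cd79b at chr11:106311341-106314762, Cd22 at chr7:30865402-30880342, Pax5 at chr4:44524757-44710487, Blk at chr14:63372836-63417037, Cr2 at chr1:195136811-195176716 and Fcer2a at chr8:3681737-3694175. Cd79a is on the plus strand and the other 7 genes are on the minus strand. Of the exon bases, 479 of Cd22 overlap Gm29439 and 761 of Pax5 overlap Gm12462 or 5730488B01Rik, which lie on the opposite strand. As it was not stated whether counting used the strand, reads of these stretches could come from either gene.

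RefSeq windows around the start site were matched by symbol for 5 of 8 genes, namely Cd79a, Cd22, Pax5, Cr2 and Fcer2a. They were searched on either strand, from 250 bases before to 50 bases after the start, for 5 short motifs: an EBF1 motif, the octamer ATGCAAAT, the PU.1 motif GAGGAAGT, the ETS motif ACAGGAAG and the TATA motif TATAAA. The PU.1 and ETS motifs overlap in the letters AGGAAG. The stretches with a match are shown because these genes moved together across the mice, with the matched letters in capitals and the 250 bases before the start printed 5′ to 3′ along the gene's strand (RefSeq, GRCm38.p6).
Cd79a, chr7:24897247-24897496, plus strand: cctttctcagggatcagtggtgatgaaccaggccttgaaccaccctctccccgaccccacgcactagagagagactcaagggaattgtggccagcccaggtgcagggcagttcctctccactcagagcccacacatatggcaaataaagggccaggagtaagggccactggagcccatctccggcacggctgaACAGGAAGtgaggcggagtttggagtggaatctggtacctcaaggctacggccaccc
Cd22, chr7:30879029-30879278, minus strand: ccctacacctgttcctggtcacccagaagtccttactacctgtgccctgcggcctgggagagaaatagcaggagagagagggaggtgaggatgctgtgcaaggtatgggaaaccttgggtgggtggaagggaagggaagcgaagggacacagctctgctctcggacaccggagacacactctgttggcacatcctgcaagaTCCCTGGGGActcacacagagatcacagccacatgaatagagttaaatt
Fcer2a, chr8:3694175-3694424, minus strand: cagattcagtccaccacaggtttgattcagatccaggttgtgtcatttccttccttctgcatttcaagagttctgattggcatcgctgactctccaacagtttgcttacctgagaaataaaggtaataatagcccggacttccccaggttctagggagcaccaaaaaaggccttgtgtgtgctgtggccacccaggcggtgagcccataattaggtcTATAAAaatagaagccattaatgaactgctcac
Cd79a held the ETS motif 57 bases before the start, as did 3.58% of 32851 windows of the same length. Cd22 held the EBF1 motif 49 bases before the start, found in 0.904% of windows, and Fcer2a held the TATA motif 33 bases before it, found in 13.6%. The Cd22 window lies within the span that GENCODE gives for this gene, which begins upstream at chr7:30880342 on the minus strand. Fcer2a had 3 windows in the table, at different start sites, and 1 of the 3 held a match, that printed here. Neither the octamer (1.74% of windows) nor the PU.1 motif (3.20%) was found in the windows of the 5 genes, and Pax5 and Cr2 held none of the 5 motifs. These are matches of letters and not measured binding.

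The first comparison, LLC against Control, asks what changes in the diaphragm of tumor-bearing mice. The transcripts of all 8 genes were higher in LLC mice, with group means 5.08 to 6.89 times those of Control mice. In each of the 8 genes the LLC mice lay above every Control mouse without overlap, where 33.6% of all genes tested did so. In the limma fit 8 of 8 genes rose, against a background of 29.7% of all genes called higher, so that a rise as such was common in this comparison. The median log2 change was 2.40 over the 8 genes and 0.16 over all genes tested.

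The signalling subunits of the receptor were the most abundant of the 8 genes. Cd79a measured 28.7, 36.8, 7.51, 10.4 and 0.199 TPM in Control replicates 1 to 5 and 97.6, 90.6 and 110.4 TPM in LLC replicates 1 to 3. The lowest LLC mouse was thus well above the highest Control mouse, and Cd79a rose by 3.25 ± 1.17 (log2 change, adjusted p = 0.0429). Cd79b, its partner, measured 21.1, 30.3, 6.25, 9.40 and 1.91 TPM in Control mice and 75.1, 62.0 and 79.7 TPM in LLC mice. Its LLC values were again apart from the Control values, with a log2 change of 2.75 ± 0.99 (adjusted p = 0.0430). In the mice given rFibcd1 the values spread widely. Cd79a was at 55.4, 5.55, 1.21, 2.44 and 10.2 TPM in Control + rFibcd1 and at 7.47, 52.6, 110.4 and 9.39 TPM in LLC + rFibcd1. Cd79b was at 41.3, 5.24, 1.34, 2.25 and 8.19 TPM in Control + rFibcd1 and at 5.89, 38.8, 75.0 and 5.64 TPM in LLC + rFibcd1. For either subunit LLC + rFibcd1 replicate 3 was at the level of the LLC mice, whereas replicates 1 and 4 were among the Control values.

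Blk, the Src family kinase, measured 4.68, 5.38, 1.28, 1.50 and 0.201 TPM in Control mice and 12.9, 12.2 and 14.7 TPM in LLC mice. It rose by 2.24 ± 0.74 (log2 change, adjusted p = 0.0305). Its highest tumor-free value was that of Control + rFibcd1 replicate 1, and the lowest LLC mouse was 1.23 times that value, the narrowest such gap of the 8 genes. In full, Blk was at 9.95, 0.793, 0.324, 0.514 and 1.94 TPM in Control + rFibcd1 and at 1.18, 7.48, 13.0 and 1.66 TPM in LLC + rFibcd1. The order of the mice was that of Cd79a with small exchanges.

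Cd22, the inhibitory coreceptor, measured 5.50, 5.97, 1.64, 2.25 and 0.0664 TPM in Control mice and 19.7, 18.4 and 25.7 TPM in LLC mice. Its log2 change of 2.72 ± 0.84 (adjusted p = 0.0235) went with the largest ratio of group means among the 8 genes, 6.89. In Control + rFibcd1 it was at 7.66, 0.913, 0.153, 0.488 and 2.39 TPM, and in LLC + rFibcd1 at 0.946, 8.09, 23.9 and 1.19 TPM. Cr2, the complement receptor that lowers the threshold of the B cell and is also made by follicular dendritic cells, was the least abundant of the 8 genes. It measured 1.60, 1.64, 0.411, 0.608 and 0 TPM in Control mice and 4.82, 3.54 and 6.25 TPM in LLC mice. Cr2 rose by 1.74 ± 0.49 (log2 change, adjusted p = 0.0179), which understates the ratio of group means of 5.73 because 1 TPM was added to low values. Further, Cr2 was at 1.53, 0.245, 0.0150, 0.0560 and 0.559 TPM in Control + rFibcd1 and at 0.121, 2.16, 5.24 and 0.356 TPM in LLC + rFibcd1. Only 2 Control mice and 1 Control + rFibcd1 mouse reached 1 TPM of Cr2, against 3 of 3 LLC mice and 2 of 4 LLC + rFibcd1 mice.

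Ms4a1, the CD20 surface protein, measured 6.67, 6.49, 1.63, 2.37 and 0.0134 TPM in Control mice and 18.6, 15.9 and 20.9 TPM in LLC mice. It rose by 2.47 ± 0.84 (log2 change, adjusted p = 0.0339). In Control + rFibcd1 mice Ms4a1 was at 9.57, 1.09, 0.136, 0.381 and 2.05 TPM, and in LLC + rFibcd1 mice at 1.31, 8.96, 19.6 and 1.43 TPM. The lowest LLC mouse had 1.66 times the Ms4a1 of the highest tumor-free mouse. Fcer2a, the CD23 receptor of follicular B cells, measured 3.63, 4.75, 1.34, 1.40 and 0.0268 TPM in Control mice and 13.6, 9.97 and 15.2 TPM in LLC mice. Fcer2a rose by 2.33 ± 0.74 (log2 change, adjusted p = 0.0264). It was at 3.99, 0.508, 0.104, 0.363 and 1.59 TPM in Control + rFibcd1 and at 0.429, 5.05, 16.8 and 0.963 TPM in LLC + rFibcd1. LLC + rFibcd1 replicate 3 exceeded all LLC mice in this gene.

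Pax5, the identity factor, measured 2.38, 2.27, 0.665, 0.841 and 0.0514 TPM in Control mice and 7.02, 6.30 and 7.86 TPM in LLC mice. It rose by 1.98 ± 0.59 (log2 change, adjusted p = 0.0217). In Control + rFibcd1 mice Pax5 was at 3.50, 0.346, 0.0814, 0.135 and 0.721 TPM, and in LLC + rFibcd1 mice at 0.326, 2.90, 7.83 and 0.491 TPM. The factor was low in TPM next to the receptor subunits, and its pattern over the mice was the same.

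**Figure D1:**
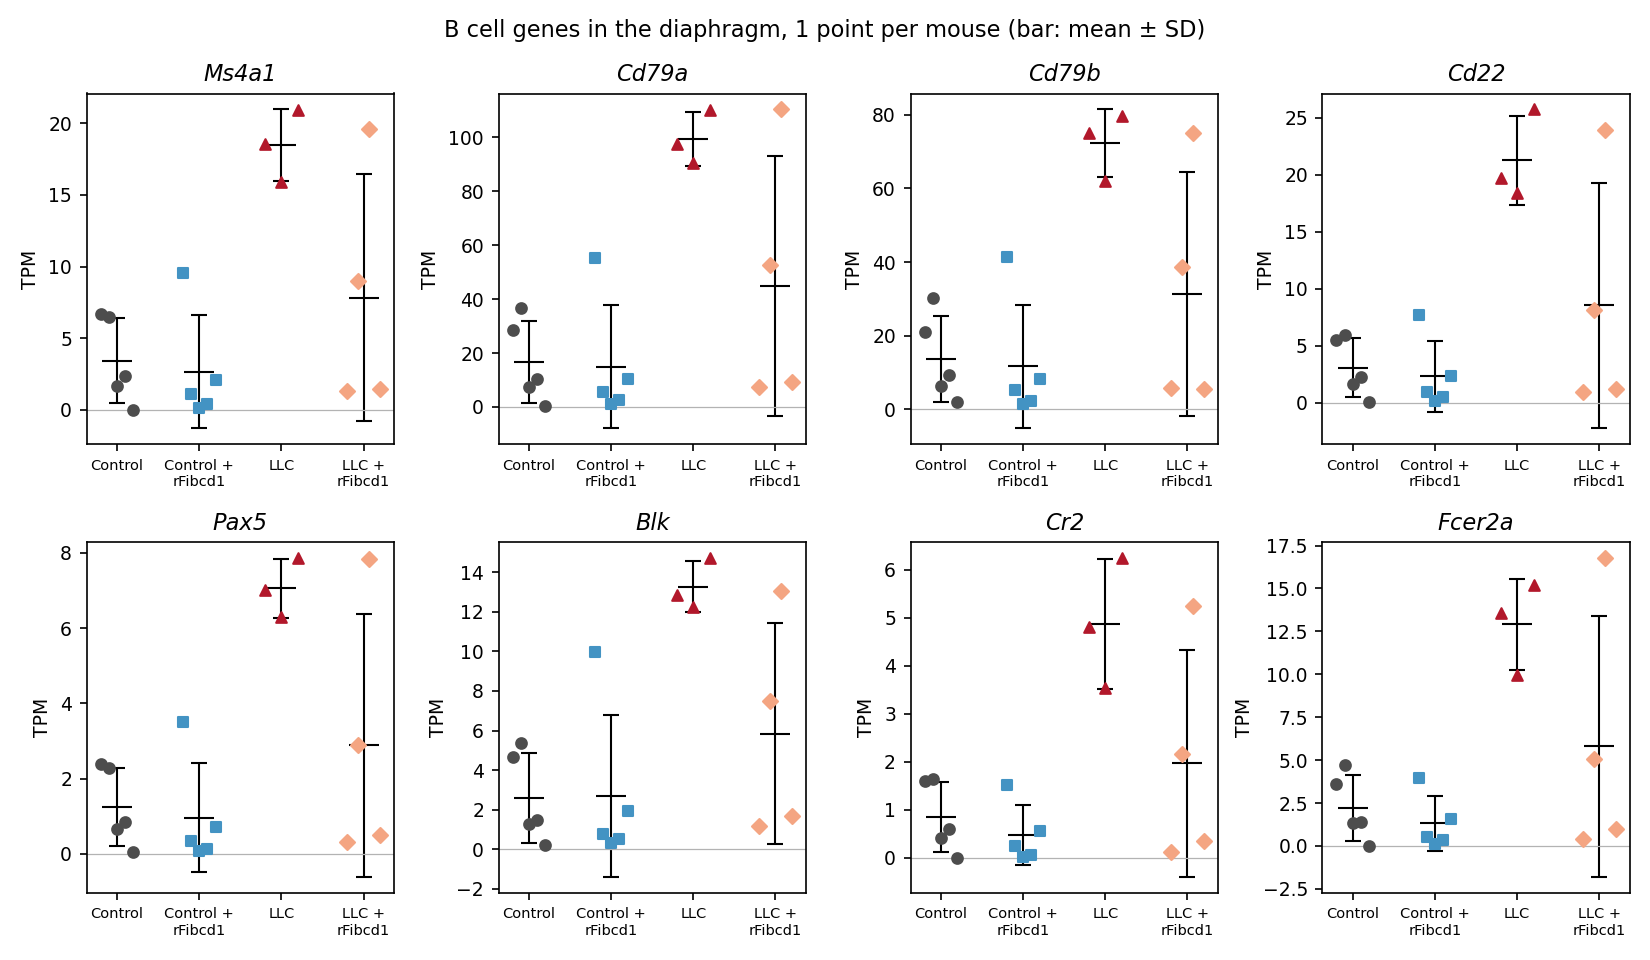
Level in TPM of the 8 B cell genes in the diaphragm, with 1 point per mouse and bars for the mean ± SD of each group (5 Control, 5 Control + rFibcd1, 3 LLC and 4 LLC + rFibcd1 mice). In each panel the 3 LLC mice lie above the 10 tumor-free mice, and the LLC + rFibcd1 mice run from the level of the tumor-free mice to that of the LLC mice.

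On the TPM scale, LLC mice ordered the genes as Cd79a (99.5 ± 9.99, SD, n = 3), Cd79b (72.2 ± 9.20), Cd22 (21.3 ± 3.90), Ms4a1 (18.5 ± 2.51), Blk (13.3 ± 1.30), Fcer2a (12.9 ± 2.67), Pax5 (7.06 ± 0.785) and Cr2 (4.87 ± 1.36). Cd22 and Ms4a1 overlapped in their values, as did Blk and Fcer2a, and the remaining neighbours in this order did not. Within the LLC group the coefficient of variation was 9.79% for Blk to 27.9% for Cr2, whereas in the other groups it was 82.8% to 153%. The mice outside the LLC group were thus unlike each other rather than low throughout. For Cd79a the group means were 16.7 ± 15.4 TPM in Control (SD, n = 5), 15.0 ± 22.9 TPM in Control + rFibcd1 (SD, n = 5) and 45.0 ± 48.3 TPM in LLC + rFibcd1 (SD, n = 4), and for Cr2 they were 0.850 ± 0.733, 0.480 ± 0.623 and 1.97 ± 2.36 TPM. For both genes Control and Control + rFibcd1 differed by less than the SD of either group, and LLC + rFibcd1 was above Control by more than the Control SD and by less than its own SD.

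In an exact permutation test over mice (two-sided, LLC against Control), Cd22, Pax5 and Cr2 reached p = 0.0179, the smallest that 56 divisions can give, and the other 5 genes p = 0.0357, with no adjustment over genes. The calls in limma were near the threshold and depended on single mice. Without LLC replicate 1 or without LLC replicate 3, 0 of 8 genes passed the adjusted threshold, and without Control replicate 5 only 1 did, Cr2. It was 4 of 8 without LLC replicate 2, Control replicate 3 or Control replicate 4. The direction was the same in each of these fits, with log2 changes of 1.54 to 3.71 over the 8 genes. A pseudocount of 0.1 TPM in place of 1 TPM left 2 of 8 genes past the threshold, and Dunn's rank test 0 of 8 after adjustment and 8 of 8 before it.

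**Figure D2:**
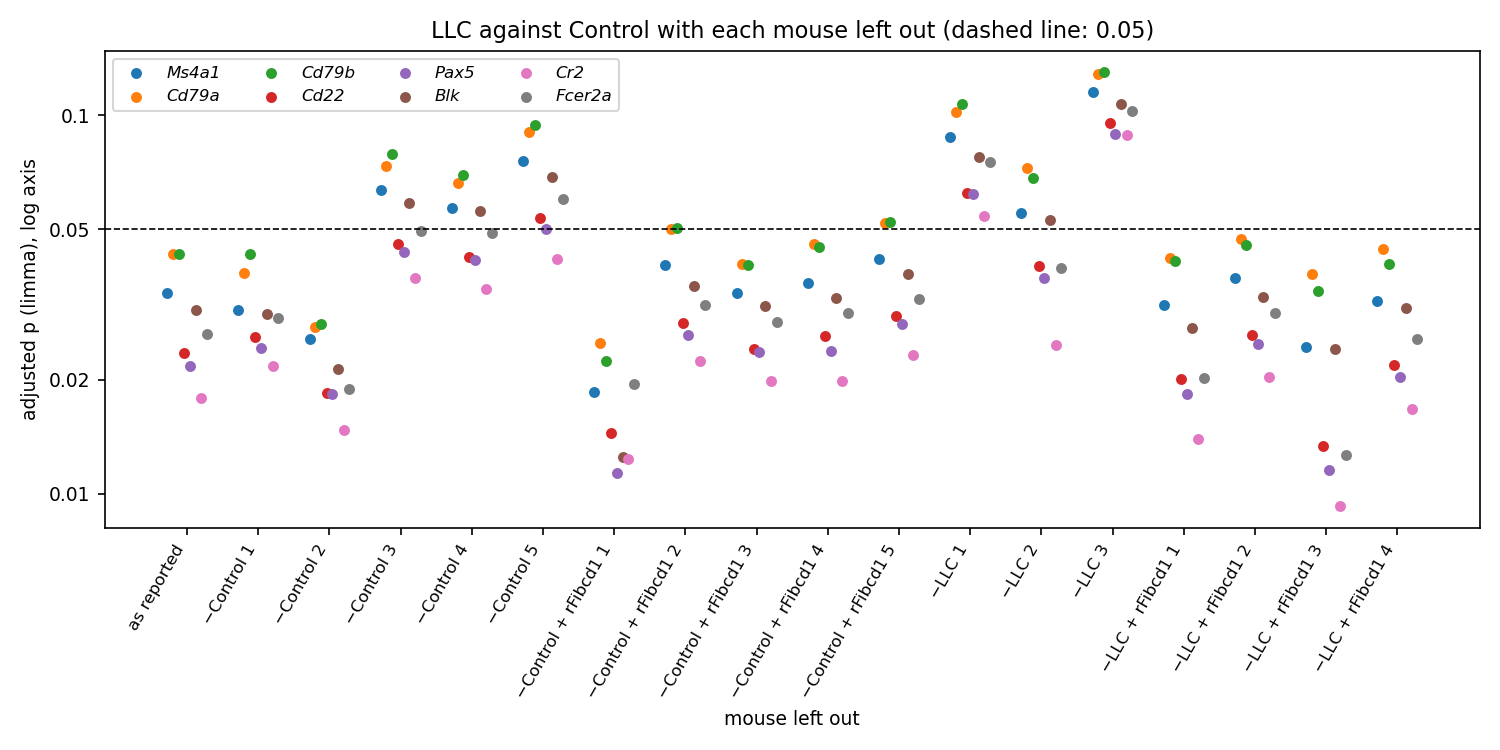
Adjusted p (limma, log axis) of the 8 genes in LLC against Control, for the fit with 17 mice and with each mouse left out, with the threshold of 0.05 as a dashed line. All points lie above the line without LLC replicate 1 or LLC replicate 3, and only Cr2 lies below it without Control replicate 5.

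The second comparison asks for the difference with the tumor among mice given rFibcd1, and it shares no mouse with the first. The 8 genes had positive log2 changes, from 0.75 ± 0.45 for Cr2 to 1.76 ± 1.08 for Cd79a, with a median of 1.12 against 0.11 over all genes. In limma 0 of 8 passed (adjusted p 0.279 to 0.343), 0 of 8 had an unadjusted p under 0.05, and Dunn's test called 0 of 8 before or after adjustment. Over all genes 7.02% were called higher with adjustment and 24.9% without it. The 95% intervals included 0, and for Cd79a ran from -0.53 to 4.06. The ratio of group means was 2.16 for Blk to 4.43 for Fcer2a, with LLC + rFibcd1 replicates 1 and 4 among the tumor-free values in all 8 genes. Without LLC + rFibcd1 replicate 3 the log2 changes fell to 0.25 for Pax5 to 1.08 for Cd79a.

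The third comparison, LLC + rFibcd1 against LLC, asks whether rFibcd1 alters levels in tumor-bearing mice, and it uses the same LLC mice as the first. The group means of the 8 genes in LLC + rFibcd1 were 0.401 times (Cd22) to 0.452 times (Cd79a) those in LLC. The log2 changes were -1.30 ± 0.52 for Cr2, -1.47 ± 0.77 for Blk, -1.48 ± 0.62 for Pax5, -1.72 ± 0.77 for Fcer2a, -1.73 ± 0.88 for Ms4a1, -1.90 ± 1.23 for Cd79a, -1.92 ± 1.04 for Cd79b and -1.98 ± 0.87 for Cd22, around a median of -1.73 against -0.11 over all genes. In limma 0 of 8 genes passed (adjusted p 0.200 to 0.322), where 0.0526% of all genes were called lower. With no adjustment 4 of 8 had a p under 0.05, namely Cr2 (0.0235), Pax5 (0.0305), Cd22 (0.0385) and Fcer2a (0.0417), against 17.3% of all genes, and Dunn's test called 0 of 8. The groups overlapped in 8 of 8 genes, whereas 9.3% of all genes tested were lower with no overlap. In the exact permutation test p was 0.143 to 0.257, where 0.0286 is the smallest possible with 35 divisions.

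The overlap came from a single mouse. LLC + rFibcd1 replicate 3 was as high as the LLC mice in every gene, with 110.4 TPM of Cd79a, and replicate 2 stood between the groups with 52.6 TPM. Leaving out replicate 3 gave log2 changes from -1.77 for Cr2 to -2.70 for Cd22. The adjusted p was then 0.0717 for Cr2 to 0.207 for Cd79a, so that 0 of 8 genes passed in that fit as well.

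**Figure D3:**
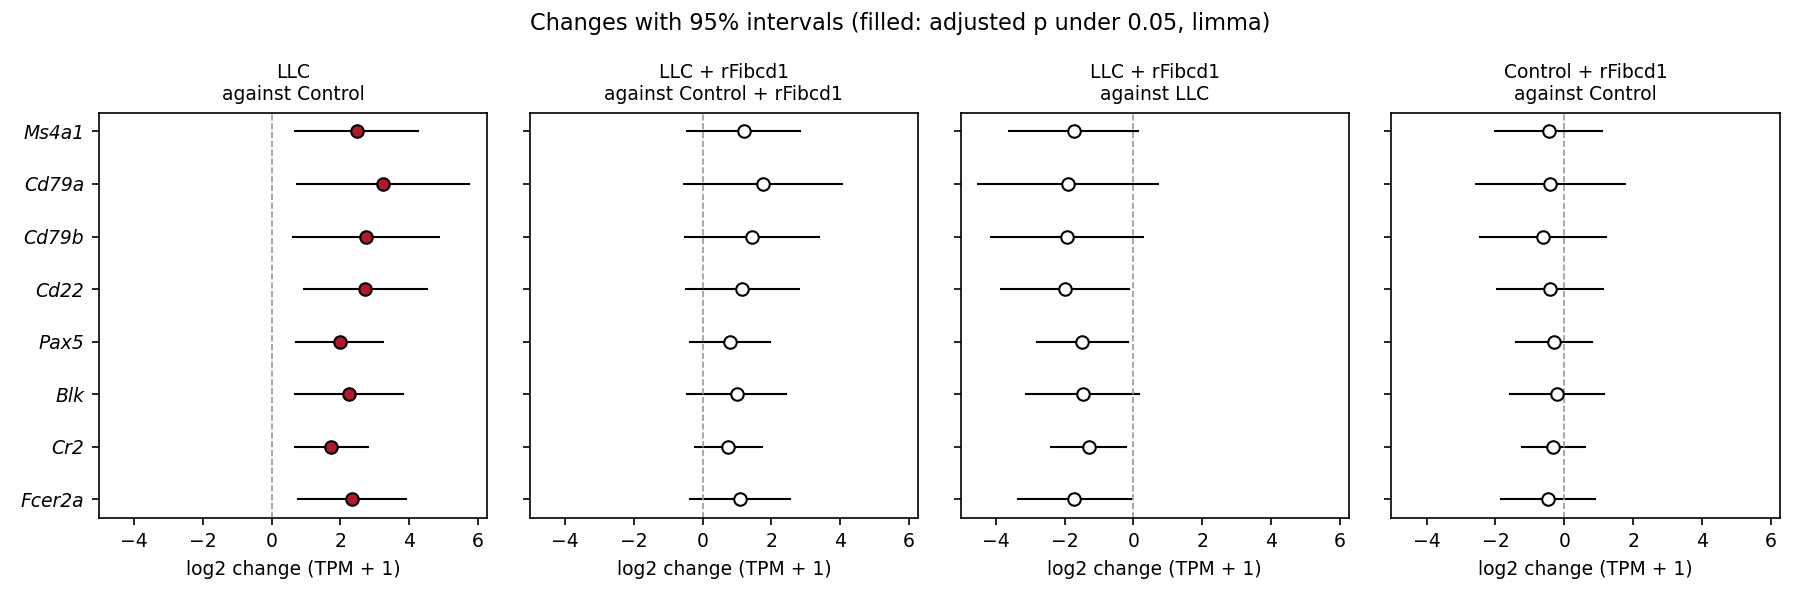
Log2 change of TPM + 1 of the 8 genes with its 95% interval in 4 comparisons, with filled points for an adjusted p under 0.05 in limma. The points are filled in LLC against Control only, and the intervals in LLC + rFibcd1 against LLC lie mostly below 0, with the upper ends of Ms4a1, Cd79a, Cd79b and Blk above it.

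In tumor-free mice, rFibcd1 against mock injection gave log2 changes of -0.22 for Blk to -0.61 for Cd79b. In limma 0 of 8 passed (adjusted p 0.927 to 0.947), 0 of 8 had an unadjusted p under 0.05, and Dunn's test called 0 of 8. Over all genes 0% were called lower with adjustment and 4.07% without it. The interval for Cd79a, from -2.57 to 1.75, leaves room for large changes in either direction. This comparison shares the Control mice with the first. Likewise LLC + rFibcd1 against Control gave 0.44 for Cr2 to 1.35 for Cd79a, with 0 of 8 passing in limma (adjusted p 0.503 to 0.644), 0 of 8 before adjustment and 0 of 8 in Dunn's test. The background there was 2.07% called higher with adjustment and 13.9% without it.

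The interaction term compares the change with rFibcd1 in tumor-bearing mice with that in tumor-free mice. It was -0.99 ± 0.67 for Cr2 to -1.56 ± 1.14 for Cd22 on the log2 scale. In limma 0 of 8 genes passed (adjusted p 0.676 to 0.744) and 0 of 8 did so before adjustment, where 0% of all genes were called lower with adjustment and 2.6% without it. The 95% interval for Cd22 ran from -3.98 to 0.86, and Dunn's test has no such term.

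The 8 genes put the 17 mice in nearly the same order. LLC replicate 3 held rank 1 or 2 in all 8 genes, LLC replicate 2 held rank 4 in all 8, and Control + rFibcd1 replicate 4 held rank 15 in all 8. LLC + rFibcd1 replicate 3 held ranks 1 to 3, Control + rFibcd1 replicate 1 ranks 5 to 8 and LLC + rFibcd1 replicate 2 ranks 5 to 6. At the lower end, Control replicate 5 and Control + rFibcd1 replicate 3 held ranks 16 to 17. Pearson's r between pairs of the genes was 0.941 to 0.996 over 28 pairs and 17 mice on the log2 scale. It was 0.910 to 0.993 when each value was taken as its deviation from the group mean. The shared order was therefore also present among mice of the same group. The points share libraries and depth, and r is given as a description.

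**Figure D4:**
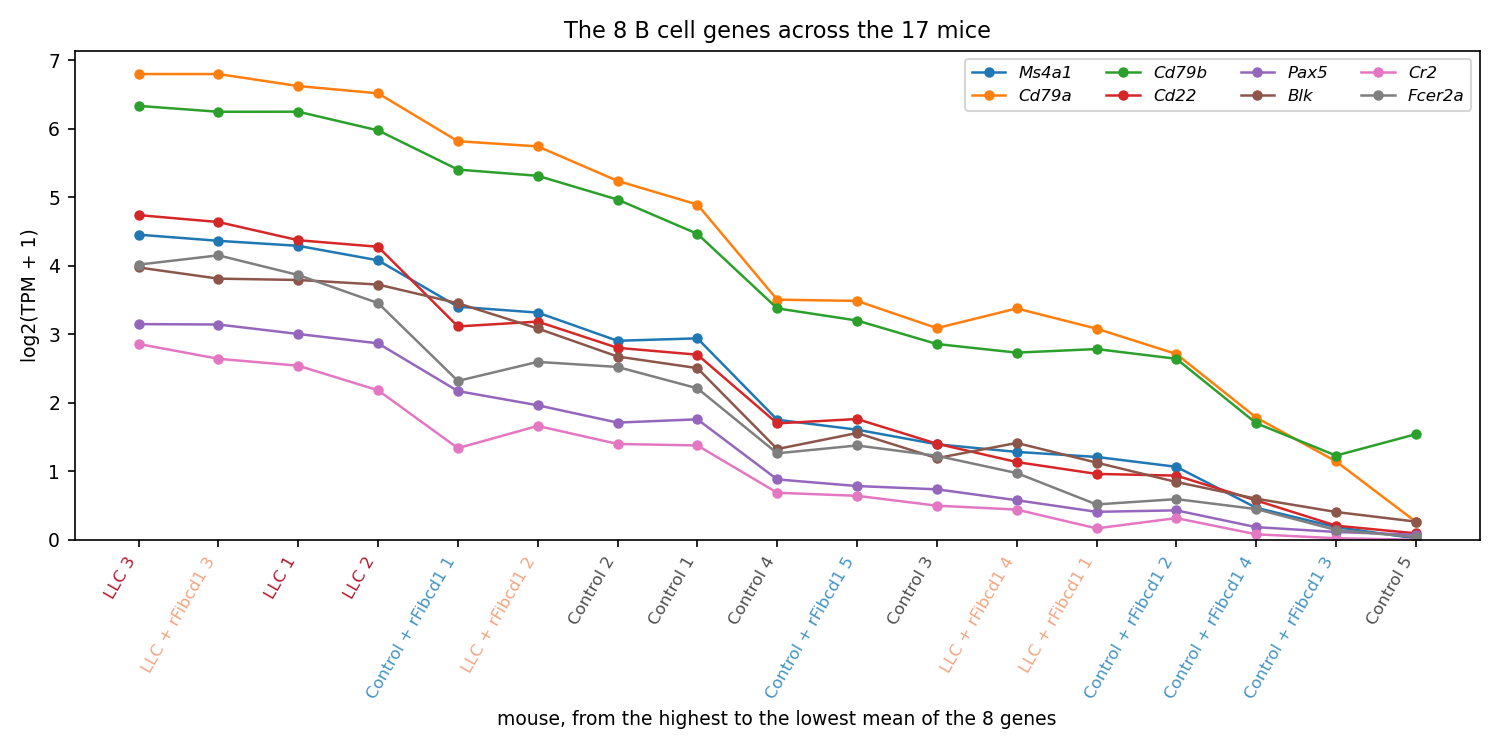
log2(TPM + 1) of the 8 genes in the 17 mice, ordered by the mean of the 8 genes, with 1 line per gene. The lines fall together from LLC replicate 3 at a mean of 4.54 to Control replicate 5 at 0.29, and the mice of each group other than LLC are spread over much of this range.

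Relative to Cd79a in the same mouse, the genes kept similar levels in most mice. In LLC mice the ratio to Cd79a was 0.684 to 0.769 for Cd79b, 0.202 to 0.233 for Cd22, 0.175 to 0.190 for Ms4a1, 0.132 to 0.135 for Blk, 0.110 to 0.139 for Fcer2a, 0.0695 to 0.0719 for Pax5 and 0.0390 to 0.0566 for Cr2. In LLC + rFibcd1 mice these ranges were 0.601 to 0.788 for Cd79b, 0.118 to 0.177 for Blk and 0.0437 to 0.0709 for Pax5. They were wider for Fcer2a, at 0.0574 to 0.152, and for Cr2, at 0.0163 to 0.0475. Cd79b exceeded Cd79a in 2 of 17 mice, Control replicate 5 with a ratio of 9.60 and Control + rFibcd1 replicate 3 with 1.11. In the former, the values stood for about 2 reads of Ms4a1, 7 of Cd79a, 66 of Cd79b, 11 of Pax5 and 2 of Fcer2a, so that ratios in this mouse divide by few reads of Cd79a. The 66 reads of Cd79b were not few in the same way. Why Cd79b stood apart from the other genes in this mouse was not tested. LLC mice by comparison had about 3312 to 3891 reads of Cd79a. With the exon length used, values within 0.05 of a whole read were 17 of 17 for each of these 5 genes, but 0 of 17 for Cd22, 1 of 17 for Blk and 3 of 17 for Cr2. Reads of Cd22, Blk and Cr2 are therefore not given, nor the limit that the 0 TPM of Cr2 in Control replicate 5 allows.

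**Figure D5:**
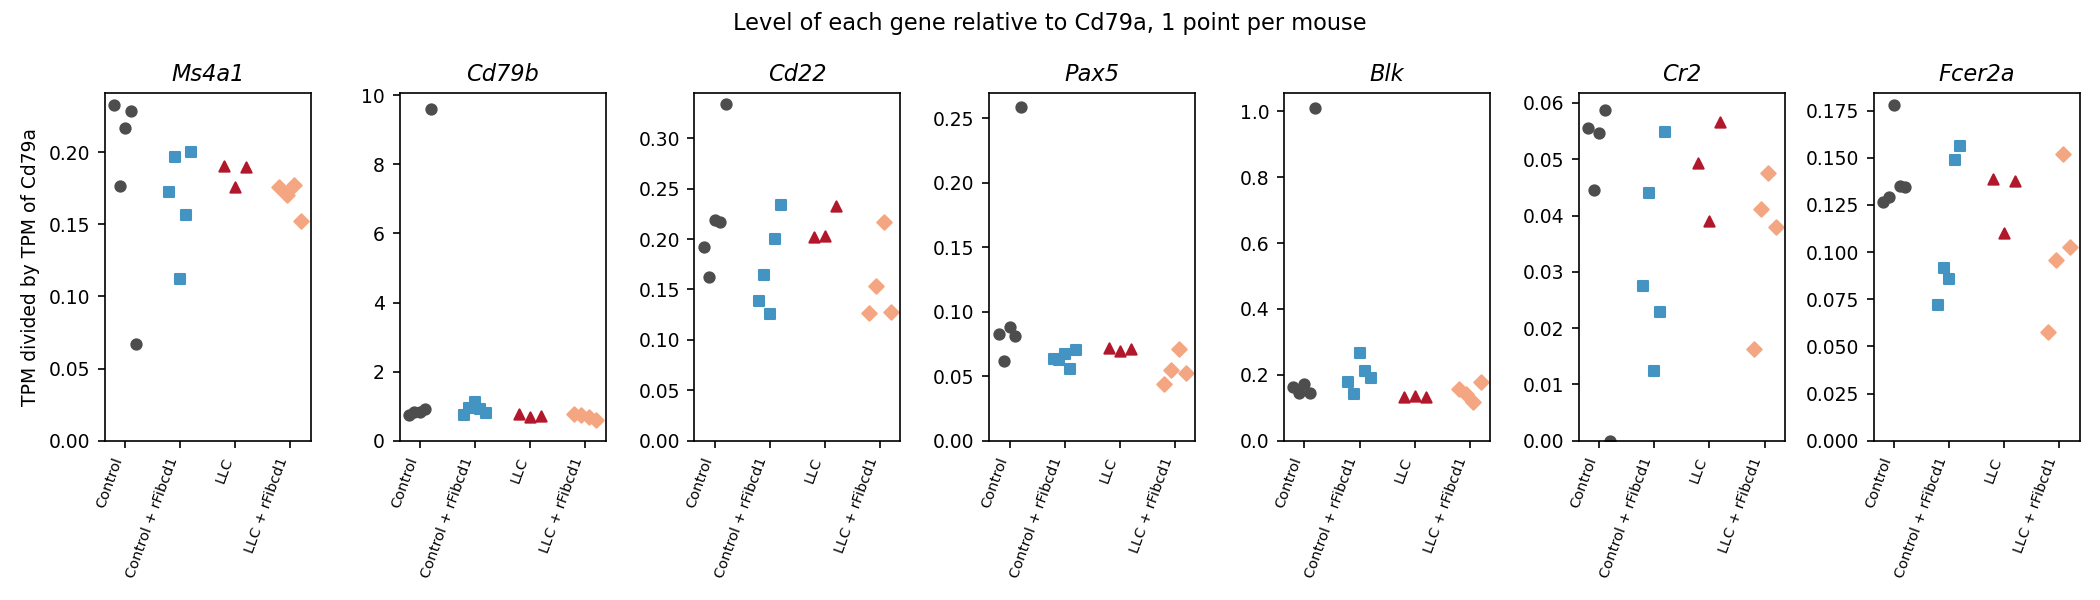
TPM of each of 7 genes divided by the TPM of Cd79a in the same mouse, with 1 point per mouse in the 4 groups. The points of most mice lie close together, and the outlying points of Cd79b (9.60), Blk (1.01) and Pax5 (0.259) are those of Control replicate 5, where Cd79a was at 0.199 TPM.

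Other genes of the receptor and the B cell were read from lists that held none of the 8 genes. Among 6 immunoglobulin constant regions, 1 passed in LLC against Control, where 29.7% of all genes were called higher. With no adjustment 5 of 6 had a p under 0.05, against 40.1% of all genes, and 6 of 6 were higher in LLC mice without overlap, against 33.6%. Their median log2 change was 3.24. The gene that passed was Ighd, the heavy chain of IgD on mature naive B cells, at 15.2, 19.6, 4.44, 6.23 and 0.392 TPM in Control and 45.9, 41.9 and 60.6 TPM in LLC mice (log2 change 2.81 ± 1.02, adjusted p = 0.0443). Ighm, the heavy chain of IgM, was at 450, 1976, 470, 527 and 13.0 TPM in Control and 2730, 4014 and 2264 TPM in LLC mice. Its log2 change of 3.21 ± 1.46 did not pass (adjusted p = 0.0946), although the groups did not overlap. The light chains did not pass either: Igkc had group means of 1324 ± 1688 TPM in Control (SD, n = 5) and 5996 ± 1572 TPM in LLC (SD, n = 3), with a log2 change of 3.84 ± 1.88 (limma, adjusted p = 0.117), and Iglc1, Iglc2 and Iglc3 had log2 changes of 3.69, 3.27 and 3.11 (adjusted p 0.0685, 0.0610 and 0.0582). The light chains were named after their values were seen. Immunoglobulin segments resemble each other, so that the counting could divide their reads.

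Of the other surface proteins of B cells, 14 of 14 tested rose in LLC against Control, against 29.7% of all genes. Fcrl5 met the level for testing only through the 3 LLC mice, so that it had to be higher there, and without it the count was 13 of 13. Over all genes 335 were tested only through the LLC mice, and the share called higher was 29% without them. None of the 8 B cell genes described first was among these. Large changes among the other surface proteins were those of Fcmr, a receptor for IgM (2.55), Tnfrsf13c, the receptor for the survival factor BAFF (2.31), and Fcrla (2.28). With rFibcd1, LLC + rFibcd1 against Control + rFibcd1 called 1 of 14, Cd81, a tetraspanin that many cell types carry (0.37 ± 0.08, adjusted p = 0.0131). That share is close to the 7.02% of all genes called higher in this comparison.

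In the signalling cascade below the receptor, 17 of 18 genes rose in LLC against Control, where 29.7% of all genes did. The largest changes were in Ptpn6, the phosphatase recruited by Cd22 (2.08), Bank1 (1.87), Dok3 (1.74) and Plcg2, the phospholipase of the cascade (1.71). Rasgrp3 did not pass (0.08 ± 0.10, adjusted p = 0.523). Of the transcription factors of the lineage besides Pax5, 9 of 9 rose, against the same share of all genes and with Bcl11a tested only through the LLC mice (8 of 8 without it), led by Pou2af1, the octamer coactivator (2.76), Spib (2.67), Ikzf3 (1.71) and Pou2f2 (1.61). Several of these signalling and regulatory genes are also expressed in other immune cells. In LLC + rFibcd1 against LLC 0 of 47 genes of these 4 lists passed in limma, and 23 had an unadjusted p under 0.05, all lower (21 of 45 without Fcrl5 and Bcl11a). Over all genes 0.0526% were called lower with adjustment and 17.3% without it.

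Markers of other stages and cells were read in the same way. The 5 genes of B cell precursors, such as Rag1, summed to at most 0.479 TPM in a mouse and 0 of 5 reached the level for testing. Of 7 germinal center genes 3 were tested and 1 rose, Fas (0.26), a gene of many cells that was named after its value was seen. Of 7 plasma cell genes 4 rose in LLC against Control, where 29.7% of all genes did, namely Irf4 (1.41), Tnfrsf17 (1.11), Sdc1 (1.03) and Xbp1 (0.76). The largest log2 changes of the list did not pass. They were those of Jchain, the joining chain of polymeric immunoglobulin, at 74.0 ± 93.3 TPM in Control (SD, n = 5) and 306 ± 88.1 TPM in LLC (SD, n = 3), with 3.24 ± 1.57 (limma, adjusted p = 0.114), and of Mzb1, at 12.8 ± 10.4 and 52.0 ± 15.9 TPM, with 2.23 ± 0.92 (adjusted p = 0.0694). In both, the LLC mice lay above the Control mice without overlap, as in 6 of the 7 genes and in 33.6% of all genes. The plasma cell genes were also named after their values were seen. Xbp1, Sdc1 and Irf4 are not confined to plasma cells, and each Control mouse had at least 31.2 TPM of Xbp1 and 4.01 TPM of Sdc1.

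T cell genes moved with the 8 B cell genes. Of 10 genes 9 rose in LLC against Control, where 29.7% of all genes did, and their summed level was 2.85 to 25.6 TPM in Control, 2.22 to 15.8 TPM in Control + rFibcd1, 39.1 to 61.3 TPM in LLC and 5.27 to 62.6 TPM in LLC + rFibcd1, with 0 of 10 genes at 0 in any mouse. Cd8a, Cd8b1 and Cd247 were tested only through the LLC mice, and without them the count was 7 of 7. The highest summed level in LLC + rFibcd1 was again that of replicate 3. Of the genes of lymphoid stroma and high endothelial venules 5 of 7 tested rose, against the same 29.7%, namely Cxcl13, the chemokine that draws B cells into follicles (3.06), Glycam1, a ligand for L-selectin on high endothelium (2.54), Clu (1.26), Ccl19 (1.05) and Mfge8 (0.60), named after their values were seen. Ccl21a and Chst4 were tested as well and did not pass. The log2 changes of the 7 tested genes ran from -0.10 to 3.06. The sum of the 9 genes of that list was 321 to 407 TPM in Control, 230 to 389 TPM in Control + rFibcd1, 529 to 845 TPM in LLC and 277 to 598 TPM in LLC + rFibcd1. Ccl21a and Clu, at means of 220 and 102 TPM over the 17 mice, weighed most in this sum. Glycam1 itself was listed at 0 in 3 of 5 Control, 4 of 5 Control + rFibcd1, 0 of 3 LLC and 2 of 4 LLC + rFibcd1 mice. In LLC + rFibcd1 against LLC 0 of 10 T cell genes and 0 of 7 genes of lymphoid stroma and high endothelium passed in limma. With no adjustment 6 of 10 (5 of 7 without Cd8a, Cd8b1 and Cd247) and 4 of 7 were lower at p under 0.05, against 17.3% of all genes. The part of T cells and lymphoid tissue in the B cell result was not tested.

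Of the macrophage and neutrophil genes 3 of 5 rose in LLC against Control, against 29.7% of all genes, namely S100a9 (3.33), S100a8 (3.01) and Csf1r (0.89). The sum ran from 203 to 439 TPM in Control, from 164 to 1523 TPM in Control + rFibcd1, from 764 to 877 TPM in LLC and from 336 to 959 TPM in LLC + rFibcd1. The highest of the 17 mice was a tumor-free one, Control + rFibcd1 replicate 1. S100a9 and S100a8, which neutrophils make in large amounts, also rose in LLC + rFibcd1 against Control + rFibcd1 (2.95 and 2.63), where 7.02% of all genes were called higher and none of the 8 B cell genes passed. These genes were also named after their values were seen. Of 4 dendritic cell genes 1 was tested and rose, Itgax (1.18). Muscle fiber genes went the other way, with 4 of 8 called lower, against 6.02% of all genes, and their sum was 61627 ± 1929 TPM in Control (SD, n = 5) and 51738 ± 1759 TPM in LLC (SD, n = 3). In the same comparison 0 of 4 adipocyte genes, 0 of 4 mesothelium genes and 0 of 3 liver genes passed in limma, with 2, 0 and 0 at an unadjusted p under 0.05 and 0 called by Dunn's test. Log2 changes were nevertheless positive in 4 of 4 adipocyte genes (median 1.73), and the summed level was 55.6 to 361 TPM in Control, 70.7 to 434 TPM in Control + rFibcd1, 188 to 954 TPM in LLC and 70.7 to 384 TPM in LLC + rFibcd1, with 0 of 4 genes at 0 in any mouse. The groups overlapped in 4 of 4. Pearson's r with the mean of the 8 genes over the 17 mice was 0.832 for Cidec, 0.814 for Adipoq, 0.803 for Plin1 and 0.699 for Lep, given as a description over shared libraries. Log2 changes were positive in 4 of 4 mesothelium genes (median 0.71) and negative in 3 of 3 liver genes (median -1.38). The 3 liver genes summed to 2734 TPM in Control + rFibcd1 replicate 2. They summed to 279 TPM in Control replicate 4 and to 244 TPM in LLC + rFibcd1 replicate 4. In the other mice the sum was 0.469 to 54.8 TPM. The part of these cell types in the result was not tested.

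Outside all lists and the immunoglobulin segments, 13027 genes were ranked by Pearson's r of log2(TPM + 1) with the mean of the 8 genes over the 17 mice. The 10 most alike were Tbc1d10c (0.997), Cd37_1 (0.996), Ptprcap (0.995), H2-Ob (0.995), H2-DMb2 (0.995), Gimap3 (0.994), Btla (0.994), Hvcn1 (0.993), Ltb (0.993) and Sash3 (0.992). The table splits Cd37, a surface protein of B cells, into the rows Cd37_1 and Cd37_2. H2-Ob and H2-DMb2 encode accessory molecules that tune peptide loading of MHC class II in cells that present antigen, B cells among them. What other immune cells express of the 10 genes was not examined. Ranked on deviations from the group means, 8 of these 10 remained among the 10 most alike, joined by Il2rg (0.989) and Napsa (0.989). The values describe these mice and give no test.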

How the data were processed

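RNA-seq libraries of 17 diaphragms were sequenced as 100-bp paired reads. The authors trimmed and filtered the reads, aligned them to GRCm38 (mm10) and derived gene levels with CLC Genomics Workbench. TPM values were deposited, in which the authors divided reads by gene length and scaled each mouse to the same sum, mitochondrial transcripts included (41.3% to 50.4% of TPM). The mitochondrial part was 41.3% to 44.3% in LLC mice and 45.9% to 48.4% in Control mice, without overlap. The annotation release and the strand setting are not given in the sources used here. The labels and the paper name different library kits and sequencers. Groups and replicate numbers came from the sample titles, and 0 value columns were left without a sample.

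Values were log2-transformed after a pseudocount of 1 TPM, and a gene was tested if 3 or more mice had 1 TPM or more of it (13305 genes). This scale understates changes of low genes. limma 3.58.1 in R 4.3.3 fitted the 4 groups in 1 model (13 residual degrees of freedom, moderation with trend, two-sided tests), with Benjamini-Hochberg adjustment over all genes tested and a threshold of 0.05. limma replaced the authors' Kruskal-Wallis and Dunn tests because groups of 3 to 5 are small for a rank approximation, and Dunn's test became an alternative. The procedure was tested on simulated data. Nothing in the labels says that replicates share a litter or day, and p-values measure the spread between these mice. All 5 pairwise comparisons reuse groups of the same 17 mice. The model takes 1 spread for the 4 groups, whereas the SD of Cd79a on the log2 scale was 0.142 in LLC and 1.97 in Control.

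Reads were estimated from the steps of low TPM values with exon lengths of GENCODE vM21, which matched 94.6% of symbols. Within a mouse 79.3% to 81.9% of low values were within 0.02 of a whole read. Estimated reads entered no test, since TPM keeps no exact depth.

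The 8 genes and all lists were chosen with earlier results of these data known. Named genes were all 8, Ighm and Ighd, and from the 4 B cell lists every gene past the threshold where fewer than 6 passed, or else the 4 with the largest change, of which 1 is not reported here. The 10 genes most alike were those with the highest r. Cd37 and Itgam were not matched by their list symbols, since the table splits each into suffixed rows. Alternatives were another pseudocount, no filter, median-ratio and quantile scaling, mitochondrial genes left out, only the groups compared, the replicate block, Dunn's test, exact permutation and each mouse left out.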

Additional observations from a re-analysis of the deposited data

Results flagged for a closer look

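Control + rFibcd1 replicate 1 stood apart from its group in the summed level of 4 adipocyte genes, with 434 TPM against 70.7 to 96.7 TPM in the other mice of the group. On the log2 scale its gap to the next mouse was 0.828 of the group's range, above Dixon's 95% critical value for 5 samples. The 8 B cell genes and 5 sums of marker lists were looked at in this way in the 3 groups with 4 or 5 mice, and 1 of 39 was marked, where chance marks about 1 in 20.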

How the results depend on the processing

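The log2 changes of the 8 genes in LLC against Control kept their direction under every alternative run. The count past the threshold, 8 of 8, was 2 with a pseudocount of 0.1 TPM, 5 with no filter on low genes, 5 without mitochondrially encoded genes, 6 with median-ratio scaling (Cd79a and Cd79b at adjusted p 0.0534 and 0.0537), 0 with Dunn's test (8 before adjustment) and 0 to 8 with a mouse left out. It was 0 without LLC replicate 1 or 3, 4 without LLC replicate 2, 4 without Control replicate 3 or 4, 1 without Control replicate 5, and 6 without Control + rFibcd1 replicate 2 or 5. It was 8 with each of the remaining 9 mice left out. The cause was not tested, but leaving out LLC mice leaves 2 in that group. In the other 5 contrasts the count was 0 under every alternative. Signs changed only in small values that passed no test, with a mouse left out. In Control + rFibcd1 against Control, the log2 change ran from -1.19 to 0.0522 for Cd79a, positive without Control + rFibcd1 replicate 3 or Control replicate 2. That of Blk ran from -0.741 to 0.0502, positive without either of these or without Control replicate 1. In LLC + rFibcd1 against Control, it ran from -0.0489 to 0.863 for Pax5, -0.0358 to 0.790 for Cr2 and -0.0901 to 1.12 for Fcer2a, negative only without LLC + rFibcd1 replicate 3.

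With the replicate number as a block, 0 of 8 genes passed in LLC against Control, with 6 at an unadjusted p under 0.05, and 5 genes passed in the whole table. The numbers do not pair the mice. The correlation of deviations from group means was -0.459 to 0.485 over 22 same-numbered pairs (median -0.061), and 1 of 17 mice correlated best with its own number.

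Over all genes, LLC against Control called 4759, against 24 without LLC replicate 3, 2254 without LLC replicate 1 and 0 with Dunn's test. Its split of 3958 higher and 801 lower became 1914 and 2036 with median-ratio scaling, 1510 and 3175 with quantile normalization, and 2480 and 1465 without mitochondrially encoded genes, as the median change of all genes moved from 0.16 to -0.01, -0.10 and 0.07. Over all alternatives the counts ran from 0 (Dunn's test) to 5244 in this comparison, 0 to 2895 around 1072 in LLC + rFibcd1 against Control + rFibcd1, 0 to 48 around 15 in LLC + rFibcd1 against LLC, 0 to 600 around 410 in LLC + rFibcd1 against Control and 0 to 11 around 0 in the interaction. The depth, about 25 reads per TPM at 1000 bases, limits values under 0.1 TPM.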
